A study of Homo sapiens with 6 samples.

Results

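LBH, BCAM, BASP1, CRIP2, CCDC80, CLIC3 and AFAP1L2 were compared between A549-TIPARP and A549-GFP cells. These 7 genes were picked by symbol, for how they stood out between the lines, out of 53826 listed entries. All 7 were among the 13181 genes with a TPM above 2 in at least 1 library, CLIC3 and AFAP1L2 through A549-TIPARP libraries alone. TPM is a level corrected for transcript length and library size, so that different genes can be set side by side. Values under 1 TPM were set to 1 by the authors, and a gene at that value is called at the floor. The A549 line derives from an adenocarcinoma of the human lung. A549-TIPARP cells stably carried a pMXs retroviral vector with the coding region of TIPARP, a mono-ADP-ribosyltransferase, and the A549-GFP controls carried GFP in the same vector. RNA of each line was sequenced in 3 libraries, numbered by experiment, and the sources used here do not say whether these came from separate transductions. The study asked which genes change when TIPARP is overexpressed. Where 3 values are listed for a line, they follow the order of its replicate numbers.

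As background, LBH is a transcription cofactor of embryonic limb and heart and a known target of Wnt signalling. BCAM, the Lutheran blood group glycoprotein, is an immunoglobulin superfamily receptor for the laminin alpha-5 chain, and its tail binds spectrin. BASP1 is a myristoylated protein of the inner face of the plasma membrane, where it acts on the actin cortex, and in the nucleus it serves as a corepressor of WT1. CRIP2 is a LIM domain protein, CLIC3 a member of the chloride intracellular channel family that takes part in integrin recycling, and AFAP1L2 (also named XB130) an adaptor that binds Src and PI3-kinase. CCDC80 is known as a secreted protein that binds the extracellular matrix, so a description of the 7 genes as nonmatrix or cytoskeletal does not cover it.

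TIPARP itself had 6.79, 11.4 and 3.68 TPM in the A549-GFP libraries and from 90.5 to 131 TPM in the A549-TIPARP libraries, so it was high where the labels say that it was introduced. All 11 markers of A549 cells, such as KRT8, KRT18 and AKR1B10, were above the floor in every library, and their summed TPM was 31053 to 48021 in A549-GFP and 43228 to 45401 in A549-TIPARP cells. All 5 endothelial markers were at the floor in every library, and so were 4 of 6 mesenchymal stromal markers. The mesenchymal markers summed to 1.09 to 1.44 TPM in A549-GFP and 1.64 to 2.56 TPM in A549-TIPARP cells, all of it COL1A1 except in A549-GFP replicate 2, where it was LUM. Of 5 leukocyte markers, PTPRC, CD3E and MS4A1 were at the floor throughout. CD68, a lysosomal gene that is not restricted to leukocytes, had 28.1 to 68.1 TPM in A549-GFP and 25.0 to 36.0 TPM in A549-TIPARP cells, while CD14 had the floor, 4.98 and 1.44 TPM and 3.03, 2.23 and 5.63 TPM. The leukocyte markers together summed to 28.1 to 73.1 and 28.1 to 41.7 TPM. The part of such other cells in the results was not tested. A549-GFP replicate 2 stood apart, with a root mean square deviation from its line's mean of 0.621 on the log2 scale against 0.185 to 0.400 for the other 5 libraries. It was the highest A549-GFP library for 62.5% of analysed genes. A library's read depth is unknown from TPM, and with 3 libraries per line the spread between them sets the precision. In RNA from whole cultures, more RNA per cell and more cells with the RNA cannot be told apart.

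The windows around the transcription start differed in sequence among these genes. AHR, the dioxin receptor, induces TIPARP and is in turn held back by it, and GCGTG is the core of the element that AHR binds. Of the 7 genes, LBH and AFAP1L2 held GCGTG on either strand within 250 bases before to 50 bases after a RefSeq start, and 36.5% of 35116 such windows did. Shown here in lower case are the windows of these genes, of CCDC80 and of BASP1 (RefSeq, GRCh38.p14), 5′ to 3′ along the gene, with GCGTG and the TATA box letters TATAAA, or their reverse complements, in capitals:
LBH, chr2:30231284-30231583, plus strand: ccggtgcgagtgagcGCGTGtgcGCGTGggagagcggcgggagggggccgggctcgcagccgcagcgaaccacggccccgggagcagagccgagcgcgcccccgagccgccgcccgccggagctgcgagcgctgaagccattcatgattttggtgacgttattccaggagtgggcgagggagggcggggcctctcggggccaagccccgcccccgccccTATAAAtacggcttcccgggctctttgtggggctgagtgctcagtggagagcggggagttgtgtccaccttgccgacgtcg
AFAP1L2, chr10:114404453-114404752, minus strand: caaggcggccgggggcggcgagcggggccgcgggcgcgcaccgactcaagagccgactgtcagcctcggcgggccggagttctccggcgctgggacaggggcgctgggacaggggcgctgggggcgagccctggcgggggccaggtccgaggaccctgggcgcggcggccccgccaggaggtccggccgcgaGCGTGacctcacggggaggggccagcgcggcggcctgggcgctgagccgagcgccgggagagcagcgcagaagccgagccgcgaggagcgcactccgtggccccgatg
CCDC80, chr3:112641094-112641393, minus strand: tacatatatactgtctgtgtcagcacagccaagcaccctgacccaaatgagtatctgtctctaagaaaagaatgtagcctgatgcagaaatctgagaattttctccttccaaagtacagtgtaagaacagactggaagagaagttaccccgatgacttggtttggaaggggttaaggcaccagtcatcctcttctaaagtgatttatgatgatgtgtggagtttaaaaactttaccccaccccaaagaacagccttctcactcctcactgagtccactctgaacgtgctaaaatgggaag
BASP1, chr5:17216573-17216872, plus strand: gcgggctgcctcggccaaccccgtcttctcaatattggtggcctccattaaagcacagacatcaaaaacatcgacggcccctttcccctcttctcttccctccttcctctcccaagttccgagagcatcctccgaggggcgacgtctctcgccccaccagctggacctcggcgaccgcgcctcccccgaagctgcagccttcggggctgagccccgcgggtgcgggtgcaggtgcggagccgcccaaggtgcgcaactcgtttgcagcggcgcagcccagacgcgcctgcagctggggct
LBH held GCGTG 235 and 227 bases before its start, as well as the letters TATAAA 31 bases before it, which 11.5% of windows hold. AFAP1L2 held GCGTG 58 bases before its start. CCDC80 had 2 CpG dinucleotides and a GC content of 43.3%, in comparison to a median of 14 CpG and 58.7% over all windows, while LBH had 36 CpG and AFAP1L2 44. The Wnt effector motif CTTTGA was in none of the 11 windows of the 7 genes and in 12.9% of all windows. The GC box GGGCGG was in a window of each gene except CCDC80, and in 44.95% of all windows. CRIP2 and BCAM have 4 and 2 listed starts, which gives them more windows to hold a motif. The whole windows of CCDC80, BASP1 and AFAP1L2 lie inside the GENCODE gene, which reaches further upstream. So do the windows of CRIP2 except the most upstream one, and among them is its only window with a GC box. All motifs were searched on both strands, and in LBH and AFAP1L2 no match overlapped a match of another motif. Binding was not measured in these cells, and a match of letters is not a site in use.

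LBH, CLIC3, AFAP1L2, CCDC80, CRIP2 and BCAM averaged more log2 TPM in A549-TIPARP cells, by 2.05-fold to 4.89-fold, and BASP1 less, by 1.75-fold. The folds of CLIC3 and AFAP1L2 are counted from the floor of 1 TPM and have no known upper limit. The libraries of the lines did not overlap for LBH, CLIC3, AFAP1L2, CCDC80 and CRIP2 among the higher genes, nor for BASP1, and they did for BCAM. The 6 higher genes were each past 2-fold, as were 1.53% of all analysed genes in that direction. None of the 7, against 0.432% of genes, was past 2-fold lower. The lines were apart with A549-TIPARP on top for 5 of the 7 and for 5.36% of analysed genes, and with A549-TIPARP beneath for 1 of the 7 and for 3.54%. In the fit across all genes (limma on log2(TPM + 1), Benjamini-Hochberg adjustment), 0 of the 7 had an adjusted p-value under 0.05, as 0.0152% of genes did, and 6 of the 7 had an unadjusted p-value under 0.05, as 3.85% of genes did. Since the 7 genes were chosen on this comparison, nothing is read from any of these counts, and no p-value is printed for single genes of the set. In neither line did the genes share a level: BASP1 was above 97.9% of analysed genes in A549-GFP cells, and AFAP1L2 was at the floor there.

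**Figure D1:**
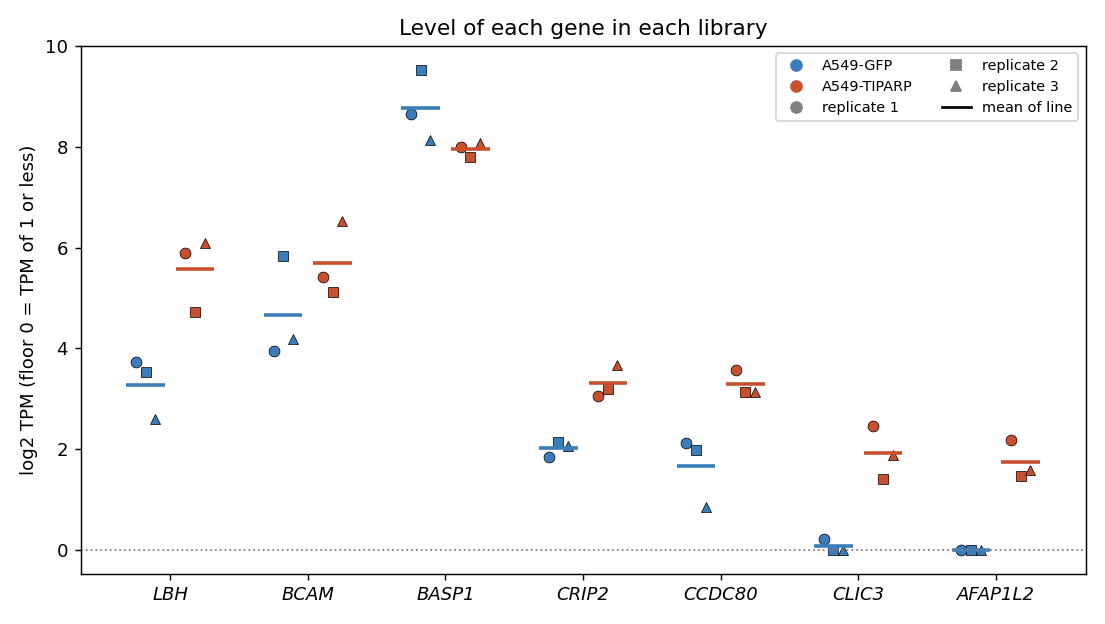
Level of each of the 7 genes in each library, as log2 TPM on the vertical axis, with A549-GFP in blue, A549-TIPARP in red, the replicate number by symbol and the mean of each line (n = 3) as a bar. The red points lie above the blue ones for LBH, CRIP2, CCDC80, CLIC3 and AFAP1L2 and below them for BASP1, while BCAM overlaps; CLIC3 and AFAP1L2 lie at or near the floor of 0 in A549-GFP cells.

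The transcription cofactor gene LBH (Entrez Gene ID 81606) spans 30231534 to 30323730 of chromosome 2 (hg38, plus strand), and its canonical transcript has 3 exons. It had 13.2, 11.5 and 6.02 TPM across the A549-GFP libraries, and 59.4, 26.3 and 68.3 TPM across the A549-TIPARP libraries. Every A549-TIPARP library was thus above the highest A549-GFP library, although the A549-TIPARP libraries themselves differed, with replicate 2 well below the others. The mean log2 TPM was 3.28 ± 0.60 (SD, n = 3) in A549-GFP and 5.57 ± 0.74 (SD, n = 3) in A549-TIPARP cells, a difference of 2.29, or 4.89-fold. This was rank 4 among the 202 genes past 2-fold higher, with values under 1 TPM counted as 1. LBH stood above 39.5% of analysed genes in A549-GFP cells and above 79.1% in A549-TIPARP cells. The log2 difference was 1.94 without A549-GFP replicate 3 and 2.71 without A549-TIPARP replicate 2, the lowest and highest of the 6 values with a library left out.

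Other genes of the Wnt pathway were set beside LBH. Of 12 such genes, 7 were analysed, and their median log2 difference was 0.02, in comparison to -0.07 for all analysed genes. By limma, 0 of the 7 had an adjusted p-value under 0.05 and 2 had an unadjusted one, as did 3.85% of all analysed genes. They were DKK1 and TCF7L1, both with the higher mean in A549-TIPARP cells. DKK1, a secreted Wnt inhibitor, had 301, 313 and 262 TPM across the A549-GFP libraries and 425, 454 and 676 TPM across the A549-TIPARP libraries, so that the lines did not overlap. Its log2 difference was 0.80, with a limma adjusted p of 0.713 over all genes and from 0.312 to 1 under the alternatives. TCF7L1, a repressor of the TCF family, had 2.86 TPM, the floor and 2.76 TPM in A549-GFP and 4.79, 3.86 and 5.58 TPM across the A549-TIPARP libraries. Its log2 difference was 1.24 (limma adjusted p = 0.983, from 0.355 to 1 under the alternatives), and 0.74, which is under 2-fold, without A549-GFP replicate 2, the library at the floor. On the log2(TPM + 1) scale of the test it was 0.89, also under 2-fold. AXIN2, the most general readout of the pathway, differed by -0.10, with 5.62 to 9.07 TPM in A549-GFP and 5.55 to 7.39 TPM in A549-TIPARP cells. LGR5, NKD1, NOTUM, SP5 and LEF1 were at the floor in all 6 libraries.

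At the membrane, the laminin receptor gene BCAM (Entrez Gene ID 4059, chromosome 19, 44809071 to 44821421, plus strand, 15 exons) had 15.4, 57.2 and 18.2 TPM across the A549-GFP libraries. Across the A549-TIPARP libraries it had 43.0, 34.6 and 92.9 TPM. The value of A549-GFP replicate 2 was above A549-TIPARP replicates 1 and 2, so the lines overlapped, and A549-TIPARP replicate 3 was the highest of all. The mean log2 TPM was 4.66 ± 1.03 (SD, n = 3) in A549-GFP and 5.69 ± 0.75 (SD, n = 3) in A549-TIPARP cells, and the difference of 1.04, or 2.05-fold, was close to the spread within each line. It was rank 169 of the 202 genes, ranked in the same way. Single libraries decided whether BCAM was past 2-fold: the log2 difference was 1.63 without A549-GFP replicate 2, and 0.62 without A549-TIPARP replicate 3, while it was 0.68 and 0.80 when replicate 1 or 3 of A549-GFP was left out. It was 0.91 with arithmetic means of TPM and 0.97 after a correction for transcript GC content, which is 64.1% for BCAM and 48.3% in the median analysed gene.

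The genes of the laminin that BCAM binds overlapped between the lines. LAMA5, the chain it recognises, had 73.4, 128 and 73.3 TPM across the A549-GFP libraries and 82.1, 82.5 and 97.6 TPM across the A549-TIPARP libraries, a log2 difference of -0.02. LAMA5 and its partner chains LAMB1 and LAMB2 were highest in the same libraries of each line as BCAM. LAMC1, also a partner chain, was instead highest in A549-GFP replicate 1 and A549-TIPARP replicate 2, with 45.4 and 44.7 TPM. The spectrin genes SPTAN1 and SPTBN1 did not share the order of BCAM in both lines either. BCAM was highest in A549-GFP replicate 2 and A549-TIPARP replicate 3, and the former was the highest of its line for 62.5% of analysed genes. Across genes, the deviations of these 2 libraries from the means of their lines correlated with r = 0.60 (13181 genes, which are not independent replicates). Of the 6 laminin and spectrin genes analysed, 0 had an unadjusted limma p-value under 0.05, in comparison to 3.85% of all analysed genes. The genes are too few for this count to be read. Among 12 other analysed adhesion genes of the immunoglobulin superfamily, 8 averaged higher in A549-TIPARP cells. The median log2 difference was 0.13 for the 12 and -0.07 for all analysed genes. Of the 12, JAM3, a junctional adhesion molecule, had an unadjusted limma p-value under 0.05. It had 1.24 TPM, the floor and 1.27 TPM in A549-GFP and 1.73, 2.94 and 2.14 TPM across the A549-TIPARP libraries, a log2 difference of 0.93 (limma adjusted p = 0.994, from 0.413 to 1 under the alternatives). JAM3 passed the filter through A549-TIPARP libraries alone, and it was not tested under the filter of TPM above 2 in at least 3 libraries, which it does not pass.

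CLIC3 (Entrez Gene ID 9022, chromosome 9, 136994608 to 136996568, minus strand, 6 exons) was at or near the floor in A549-GFP cells. It had 1.15 TPM in A549-GFP replicate 1 and was listed at the floor, TPM of 1 or less, in replicates 2 and 3. Across the A549-TIPARP libraries it had 5.49, 2.64 and 3.68 TPM, each above every A549-GFP library. The mean log2 TPM was 0.07 ± 0.12 (SD, n = 3) in A549-GFP and 1.91 ± 0.53 (SD, n = 3) in A549-TIPARP cells. With values under 1 TPM counted as 1, the gene was 3.59-fold higher. Leaving out single libraries gave log2 differences from 1.57 to 2.10, so 3.59-fold is not a lower limit. The level in A549-TIPARP cells remained low, above 19.6% of analysed genes. The related channel genes above the floor in these cells overlapped between the lines. CLIC1 had 364 to 451 TPM in A549-GFP and 363 to 427 TPM in A549-TIPARP cells, and CLIC4 had 17.1 to 53.3 TPM and 29.6 to 31.1 TPM. Their log2 differences were -0.00238 and -0.07. CLIC2, CLIC5 and CLIC6 were at the floor in all 6 libraries, as was RAB25, the GTPase of integrin recycling with which CLIC3 acts in other tumour cells. TGM2, a transglutaminase tied to secreted CLIC3, had 254 to 410 TPM in A549-GFP and 170 to 325 TPM in A549-TIPARP cells, and its lines overlapped.

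The adaptor gene AFAP1L2 (Entrez Gene ID 84632, chromosome 10, 114294824 to 114404756, minus strand, 19 exons) was listed at the floor in each A549-GFP library. It had 4.51, 2.78 and 3.00 TPM across the A549-TIPARP libraries, a mean log2 TPM of 1.74 ± 0.38 (SD, n = 3). Relative to the floor of 1 TPM the gene was 3.35-fold higher, and its true fold change is not bounded from above by these data. Nor is 3.35-fold a lower limit, since leaving out single libraries gave log2 differences from 1.53 to 1.88. As with CLIC3, the highest A549-TIPARP library was replicate 1 and the lowest was replicate 2. AFAP1, the founding member of the family, had 6.62 to 8.67 TPM in A549-GFP and 7.07 to 7.50 TPM in A549-TIPARP cells, a log2 difference of -0.02. AFAP1L1 was at the floor throughout. SRC, the kinase that AFAP1L2 binds, had 160 to 290 TPM in A549-GFP and 145 to 189 TPM in A549-TIPARP cells, with a log2 difference of -0.25. The PI3-kinase subunit genes PIK3R1 and PIK3R2 differed by 0.01 and 0.23. By limma, 0 of these 4 analysed genes had an unadjusted p-value under 0.05, in comparison to 3.85% of all analysed genes. Nothing is read from a count of 0 among so few genes.

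CRIP2 (Entrez Gene ID 1397, chromosome 14, 105472962 to 105480162, plus strand, 8 exons) varied least among the A549-GFP libraries of the genes above the floor there. It had 3.59, 4.42 and 4.19 TPM across the A549-GFP libraries, and 8.31, 9.17 and 12.7 TPM across the A549-TIPARP libraries. The libraries were well apart, the lowest A549-TIPARP value being 0.91 above the highest A549-GFP value on the log2 scale. The mean log2 TPM was 2.02 ± 0.16 (SD, n = 3) and 3.31 ± 0.32 (SD, n = 3), a difference of 1.29, or 2.44-fold. Leaving out single libraries gave differences from 1.11 to 1.41.

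CRIP1, a smaller LIM protein gene, begins 6155 bases past the end of CRIP2 on the same strand. It was far more abundant, with 495, 578 and 767 TPM across the A549-GFP libraries and 930, 932 and 837 TPM across the A549-TIPARP libraries, again with no overlap. Its log2 difference was 0.57, with an unadjusted limma p-value of 0.0142 and an adjusted one of 0.966 over all genes (from 0.449 to 1 under the alternatives). MTA1, the nearest analysed coding gene on the other side of CRIP2, differed by 0.24 (limma adjusted p = 0.994). The related genes CSRP1 and CSRP2 differed by -0.24 and 0.48, and in both the lines overlapped. The nearest analysed coding genes on either side of the other 6 genes were 12 in number and up to 14123651 bases away. Of these, 0 had an unadjusted limma p-value under 0.05, in comparison to 3.85% of all analysed genes.

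CCDC80 (Entrez Gene ID 151887, chromosome 3, 112596797 to 112649530, minus strand, 8 exons), the gene of a secreted matrix-binding protein, had 4.36, 3.97 and 1.80 TPM across the A549-GFP libraries. Across the A549-TIPARP libraries it had 11.9, 8.80 and 8.83 TPM. A549-GFP replicate 3 was the low value, and the libraries of the lines did not overlap. The mean log2 TPM was 1.66 ± 0.70 (SD, n = 3) in A549-GFP and 3.28 ± 0.25 (SD, n = 3) in A549-TIPARP cells, a difference of 1.63, or 3.09-fold. It was 1.23 without A549-GFP replicate 3. SRPX and SRPX2, secreted relatives of CCDC80, differed by -0.08 and 0.08, and both had their highest value in A549-GFP replicate 2, with 51.4 and 15.1 TPM.

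BASP1 (Entrez Gene ID 10409, chromosome 5, 17065598 to 17276843, plus strand, 2 exons) was the most abundant of the 7 genes and the only one of them that averaged lower in A549-TIPARP cells. It had 401, 741 and 283 TPM across the A549-GFP libraries, and 257, 224 and 271 TPM across the A549-TIPARP libraries. The A549-TIPARP libraries were close together and below all of the A549-GFP libraries, but the step from A549-GFP replicate 3 to A549-TIPARP replicate 3 was only 0.07 on the log2 scale. The mean log2 TPM was 8.78 ± 0.70 (SD, n = 3) in A549-GFP and 7.96 ± 0.14 (SD, n = 3) in A549-TIPARP cells, a difference of -0.81. It became -0.43 without A549-GFP replicate 2, the library that stood apart, and -1.13 without A549-GFP replicate 3. MARCKS and MARCKSL1, which like BASP1 lie beneath the plasma membrane, differed by 0.28 and -0.12, and GAP43 was at the floor throughout. WT1, the factor for which nuclear BASP1 is a corepressor, had 3.50 to 8.54 TPM in A549-GFP and 5.14 to 7.39 TPM in A549-TIPARP cells, and PHB and HDAC1, which act with BASP1, differed by -0.21 and 0.09. BASP1-AS1 overlaps BASP1 on the other strand, and although the library kit marks strand, the use of strand in counting is not stated.

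**Figure D2:**
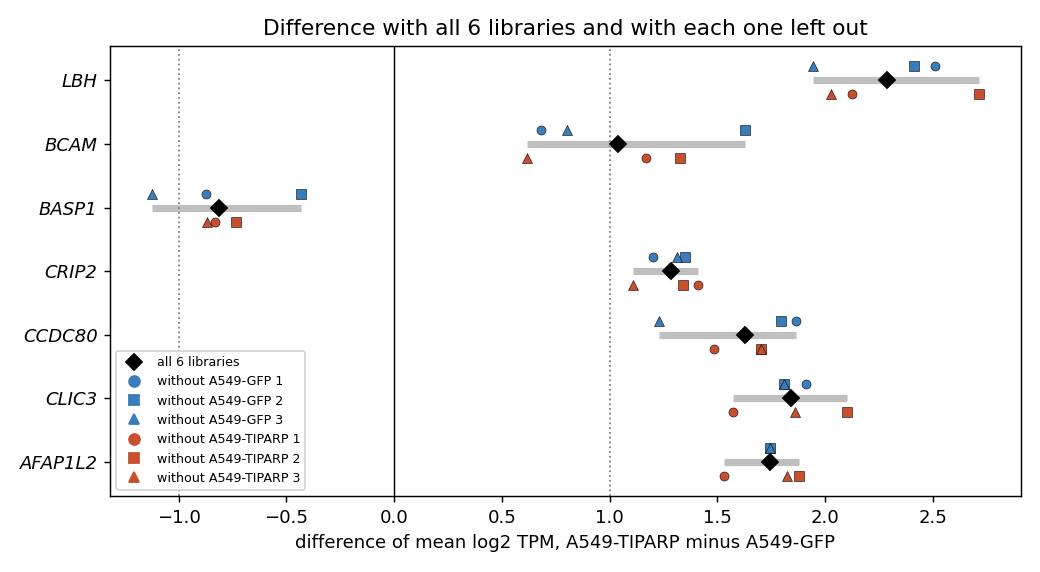
Difference of mean log2 TPM between A549-TIPARP and A549-GFP cells for each of the 7 genes on the horizontal axis, with all 6 libraries (black diamonds) and with each library left out (coloured symbols, grey bar for their range); dotted lines mark 2-fold. BCAM runs from 0.62 to 1.63 and BASP1 from -1.13 to -0.43, while the other 5 genes stay beyond 1.

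In A549-GFP cells replicate 2 was the highest library for BCAM, BASP1 and CRIP2, and BCAM and BASP1 stood there 1.77 and 1.14 above the mean of replicates 1 and 3 on the log2 scale, in comparison to 0.38 for the median analysed gene. CCDC80 stood 0.50 above, LBH 0.37 and CRIP2 0.19. In A549-TIPARP cells replicate 2 was the lowest library for 6 of the 7 genes, CRIP2 being the exception, and it was the lowest for 29.1% of analysed genes. LBH, BCAM, BASP1 and CRIP2 had their highest A549-TIPARP value in replicate 3, and CCDC80, CLIC3 and AFAP1L2 in replicate 1. TIPARP was also lowest in A549-TIPARP replicate 2, at 90.5 TPM, and highest in replicate 1. BASP1, although it averaged lower in A549-TIPARP cells, was likewise lowest in A549-TIPARP replicate 2, at 224 TPM. With 3 libraries the order among libraries was not tested.

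**Figure D3:**
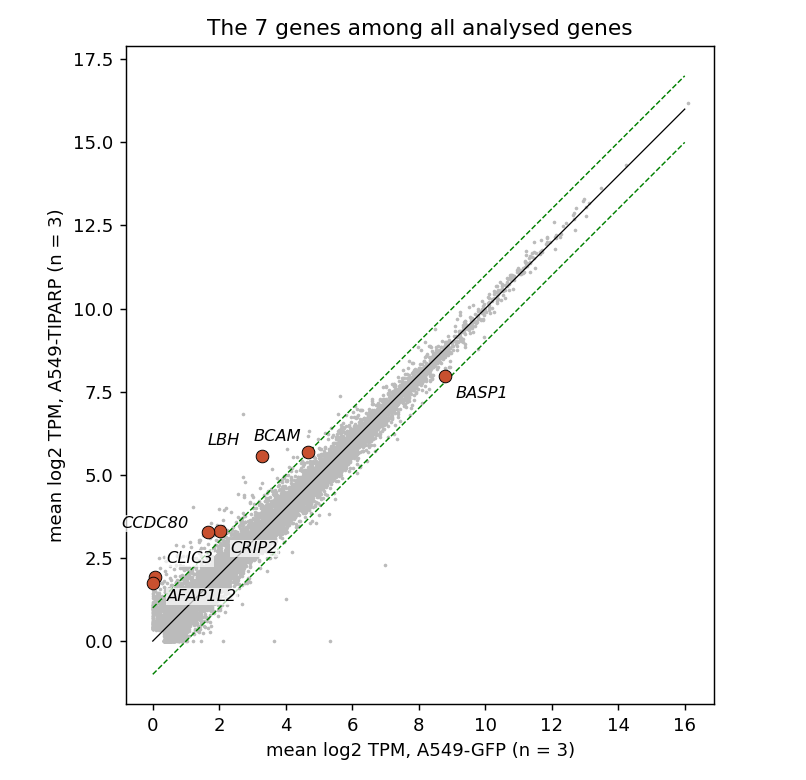
Mean log2 TPM of each analysed gene (grey points, 13181 genes) in A549-GFP cells on the horizontal axis and in A549-TIPARP cells on the vertical axis, n = 3 each, with the 7 genes in red; the black line marks equal means and the dashed lines 2-fold. LBH lies farthest above the upper dashed line of the 7 genes, BCAM lies at that line, and BASP1 lies between the black and the lower dashed line, near the top of the expression range.

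The general actin cytoskeleton genes did not pass the test in either direction. Of 36 genes of that list, 34 were analysed, 24 of them higher on average in A549-TIPARP cells and 10 lower, and their median log2 difference was 0.09 against -0.07 for all analysed genes. By limma, 0 of the 34 had an adjusted or an unadjusted p-value under 0.05, in comparison to 0.0152% and 3.85% of all analysed genes. ACTB, the main cytoplasmic actin, had 4421 to 6061 TPM in A549-GFP and 4930 to 6748 TPM in A549-TIPARP cells. The lines were apart for TPM1, ACTN1, ACTG1 and PDLIM7, all higher in A549-TIPARP cells, with log2 differences of 0.48, 0.31, 0.29 and 0.37. Over all analysed genes, 5.36% were apart in this direction and 3.54% in the other. Over the 11 lists of relatives and partners together, 80 of 97 genes other than the 7 were analysed. Of the 80, 0 had an adjusted limma p-value under 0.05 and 4 had an unadjusted one, DKK1, TCF7L1, JAM3 and CRIP1, in comparison to 3.85% of all analysed genes. The median log2 difference of the 80 genes was 0.07.

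**Figure D4:**
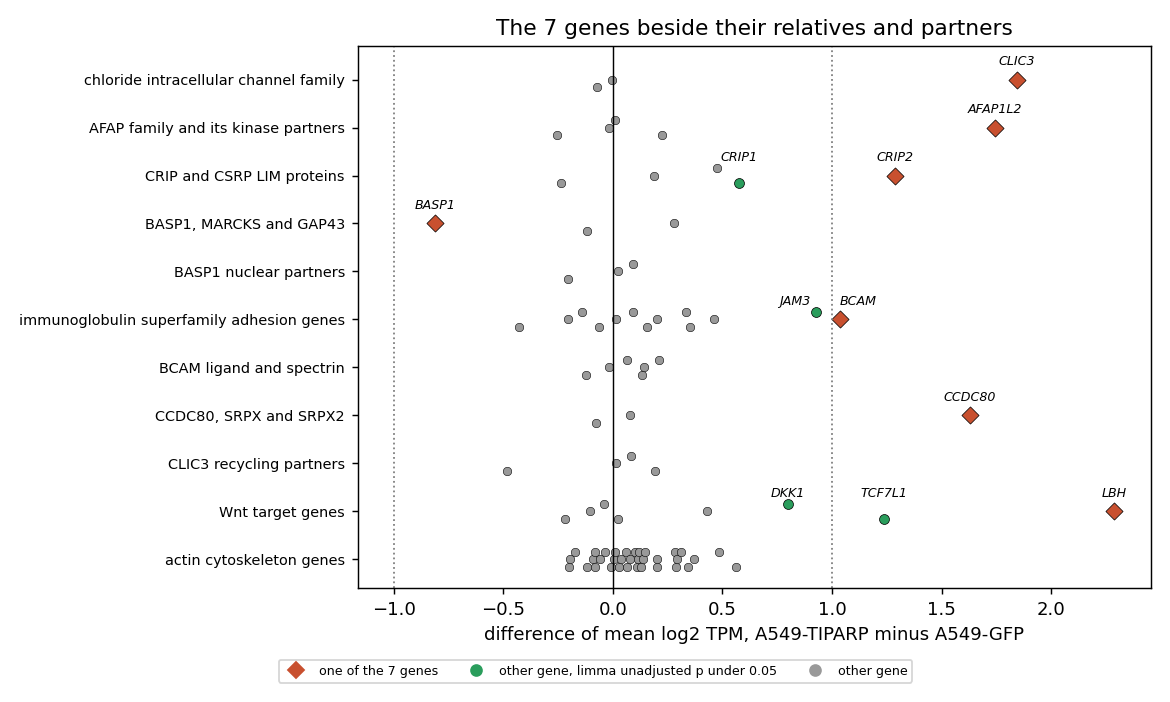
Difference of mean log2 TPM between A549-TIPARP and A549-GFP cells on the horizontal axis for the analysed genes of 11 lists, 1 list per row, with the 7 genes as red diamonds, other genes with an unadjusted limma p-value under 0.05 in green and the rest in grey; dotted lines mark 2-fold. The actin cytoskeleton genes lie between -0.20 and 0.56, and of the other genes TCF7L1 is past 2-fold on this scale, though not without A549-GFP replicate 2 (0.74) nor on the log2(TPM + 1) scale of the test (0.89).

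The genes whose levels most resembled the average pattern of the 7 genes over the 6 libraries were CHDH, TSPAN9, FZD2, CROCC and TTYH3. BASP1 entered that average without a change of sign, so the average follows mostly the genes that were higher in A549-TIPARP cells. The genes named are higher there too, opposite to BASP1. Pearson's r with the mean of the z-scored log2 TPM of the 7 genes was 0.993 to 0.994 for these, the highest of 12162 genes above the floor in every library. The 6 libraries fall into 2 lines, so such values of r reflect mostly the difference between the lines, and they are given as a description. FZD2, a Frizzled receptor for Wnt ligands, had 7.55, 10.7 and 7.05 TPM across the A549-GFP libraries and 19.0, 13.6 and 20.2 TPM across the A549-TIPARP libraries, a log2 difference of 1.07. The other 4 genes of this kind differed by 0.35 to 0.57. Closest to LBH alone were FARP1 (r = 0.993), AACS (r = 0.992) and MATN2 (r = 0.990). MATN2, a matrilin, had 2.99, 3.34 and 1.77 TPM in A549-GFP and 8.24, 5.18 and 11.3 TPM across the A549-TIPARP libraries, with the low A549-TIPARP value in replicate 2, as for LBH.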

How the data were processed

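TruSeq Stranded mRNA libraries of 3 A549-GFP and 3 A549-TIPARP samples were sequenced in pairs of reads. The authors used Strand NGS at default settings, with hg38 transcripts as the reference for alignment, and deposited the log2 TPM of each gene, with TPM below 1 set to 1. The software version, the annotation release and the use of strand were not given in the sources used here. Groups and replicate numbers were taken from the sample titles. Genes with TPM above 2 in at least 1 library were kept, as in the study. Levels and differences are on the deposited log2 scale. For the test, TPM with a pseudocount of 1 was log2-transformed, with values at the floor taken as 1 TPM, and fitted with limma 3.58.1 in R 4.3.3, with a variance trend, Benjamini-Hochberg adjustment and no block. P-values set the difference between the means of the lines against the spread between these libraries, moderated over all tested genes. Whether that spread includes separate transductions is unknown. The fit was tested on simulated data. The 7 genes and the lists of relatives, partners and markers were chosen with earlier results of these data known. Any gene of the lists could be named, and those with an unadjusted p-value under 0.05 or past 2-fold always were. The genes of like pattern are the 5 with the highest r to the mean of the 7 genes and the 3 with the highest r to LBH. Neighbours of the 7 genes were named outside this rule. Alternatives were other pseudocounts (0.1, or none), arithmetic means, median-ratio rescaling, a lowess correction for transcript GC content (span 0.3, statsmodels 0.14.6, GENCODE 44 transcripts, available for 98.3% of analysed genes), stricter or no filters, no variance trend, the replicate block and each library left out. Coordinates are those of GENCODE 44 on hg38.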

Additional observations from a re-analysis of the deposited data

How the results depend on the processing

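The direction of each of the 7 genes was the same under all of the alternatives run. With a pseudocount of 1 and values at the floor taken as 0 TPM, the log2 difference of AFAP1L2 was 2.13. With a pseudocount of 0.1 it was 5.11, and that of CLIC3 was 4.06, by construction, since the floor then counts as 0; under that setting 626 genes were more than 2-fold higher and 266 lower, in comparison to 202 and 57. Arithmetic means gave 143 lower genes and median-ratio rescaling 37. With each library left out, the count of genes past 2-fold higher lay between 228 and 383 (383 when A549-GFP replicate 2 was out, 324 when replicate 1 was). From 39 to 200 were lower (200 and 153 without replicate 3 or 1 of A549-GFP, 103 without A549-TIPARP replicate 3). Of the 7 genes, 5 or 6 were past 2-fold under every alternative run, and BCAM was the one that changed sides, except that BASP1 also passed 2-fold without A549-GFP replicate 3, where BCAM did not. The limma count of 2 genes was 1 with no filter, and lay between 1 and 3 as single libraries were dropped (1 without A549-GFP replicate 3 or without A549-TIPARP replicate 1 or 2). Deviations of same-numbered libraries correlated with r = 0.41, -0.49 and -0.36, and the replicate numbers were not taken as pairs. With the replicate block the limma count was 1, and 1 with the block and the GC correction, and 414 and 573 genes had an unadjusted p-value under 0.05. None of the list genes had a limma adjusted p-value under 0.05 under any alternative run, and from 3 to 14 had an unadjusted one, 14 without A549-GFP replicate 2. The share of all tested genes with an unadjusted p-value under 0.05 moved too, from 3.85% to 10.5% without A549-GFP replicate 2, 8.23% without replicate 3 of that line, and 1.92% and 2.42% without A549-TIPARP replicate 1 or 3. It was 6.25% with the GC correction, where 5 list genes passed, and 5.96% with median-ratio rescaling, where 8 did, in comparison to 4. Read depth is unknown, so the counting error of levels near 1 TPM, as for CLIC3 and AFAP1L2 in A549-GFP cells, could not be estimated.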
